A study of Zea mays with 27 samples.

Results

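The data described here are 3 of the 27 dual-colour cDNA arrays of a maize (Zea mays) series on ultraviolet radiation. All 3 carried adult leaf RNA of the b,pl genotype, with b,pl plants kept under a plastic filter labelled CA in the other channel. On 2 arrays, one per dye, the b,pl plants had stood in a greenhouse and received 8 h of supplementary UV-B. On the other array the b,pl plants had stood in a greenhouse without UV-B. The arrays were chosen by their labels alone. The genotype symbol b,pl stands for recessive alleles of B and Pl, transcription factors that switch on anthocyanin synthesis, and all RNA on these 3 arrays carries it. For some genes the text adds values from 3 further arrays, on which leaves of the B,Pl, bz2 or mutator genotype after the same 8 h of greenhouse UV-B were labelled with Cy5, 1 array a genotype, against the same b,pl CA control. What CA stands for, the age of the plants, the UV-B dose and whether the arrays came from separate plants are not given in the labels, so p-values measure only the spread between arrays, which may be technical. The labels give a place for the greenhouse plants and a filter for the CA plants, but not where the CA plants grew. Place of growth and filter cannot be told apart. Below, the arrays with UV-B are set beside the one without it. That array is single, and the labels do not say whether its plants shared greenhouse and date with the others. UV-B and other differences between these arrays therefore cannot be told apart.

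UV-B is the shortest solar radiation that reaches leaves. Plants sense it through the photoreceptor UVR8, and at higher doses it damages DNA, proteins and membranes. Flavonoids, including the anthocyanins that B and Pl control, absorb it in the epidermis. Of 14 flavonoid genes looked for, 0 were among the annotated cDNAs, so that pathway was not analysed here.

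Each array held 16200 spots in consecutive triplicates, which gave 5400 cDNAs, and 5355 of them had a value on all 3 arrays. One gene symbol was available for 811 cDNAs of 213 genes, and the other 4589 are called by spot number. Values were present for 15965 and 15926 spots on UV-B replicates 1 and 2, against 16080 spots on the array without UV-B. A value is the log2 ratio of greenhouse RNA to CA RNA after centring each array on its median and signing it by dye. The labels do not say which dye was the numerator. Positive values mean more RNA in the greenhouse leaves if it was Cy5 and less if it was Cy3, so only signs and sizes are given below. Several cDNAs of a gene share sequence and are not replicates, and members of close families (tubulins, elongation factors, HSP70, glyceraldehyde-3-phosphate dehydrogenases) can cross-hybridise.

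The direction of UV-B replicate 2 was not settled. Over all cDNAs it correlated at −0.403 with the same-dye array of b,pl leaves taken after removal of the PE filter, another filter of the study. Negative correlations also occurred elsewhere. Among arrays with b,pl CA in Cy3, the lowest between any 2 was −0.283, and the lowest with UV-B replicate 1 was −0.157. Its deposited values ran opposite to those of UV-B replicate 1, as opposite dyes imply (Spearman −0.396 and Pearson −0.146). The median residual variance of the model over all arrays was 0.168 with the labels as given, 0.205 with UV-B replicate 2 turned and 0.161 with the PE removal array turned. Labels were followed, and results with UV-B replicate 2 turned are given beside those with the labels as they stand. Turning it changes the sign of every UV-B replicate 2 value and median printed below.

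After signing, 3437 of 5358 cDNAs (64.1%) had the same sign on both UV-B arrays, and the values differed by a median of 0.338. Among the 146 cDNAs of at least 1 in size on both, 79 had the same sign and 67 had opposite signs. Of those 67, 66 were positive on UV-B replicate 1 and negative on UV-B replicate 2, with medians of 2.12 and −2.30. Before signing by dye, these 66 were thus positive on both arrays. Of the 66, 1 was named, against 811 of all 5400 cDNAs. On the array without UV-B the median of the 66 was −0.10, with 10 at or above 1 and 13 at or below −1. Large values with opposite signs were thus about as frequent as large values with the same sign. Whether dye or the unsettled direction of UV-B replicate 2 plays a part was not tested. For UV-B minus CA, 0 of the 66 had an unadjusted p under 0.05 in limma's test.

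**Figure D1:**
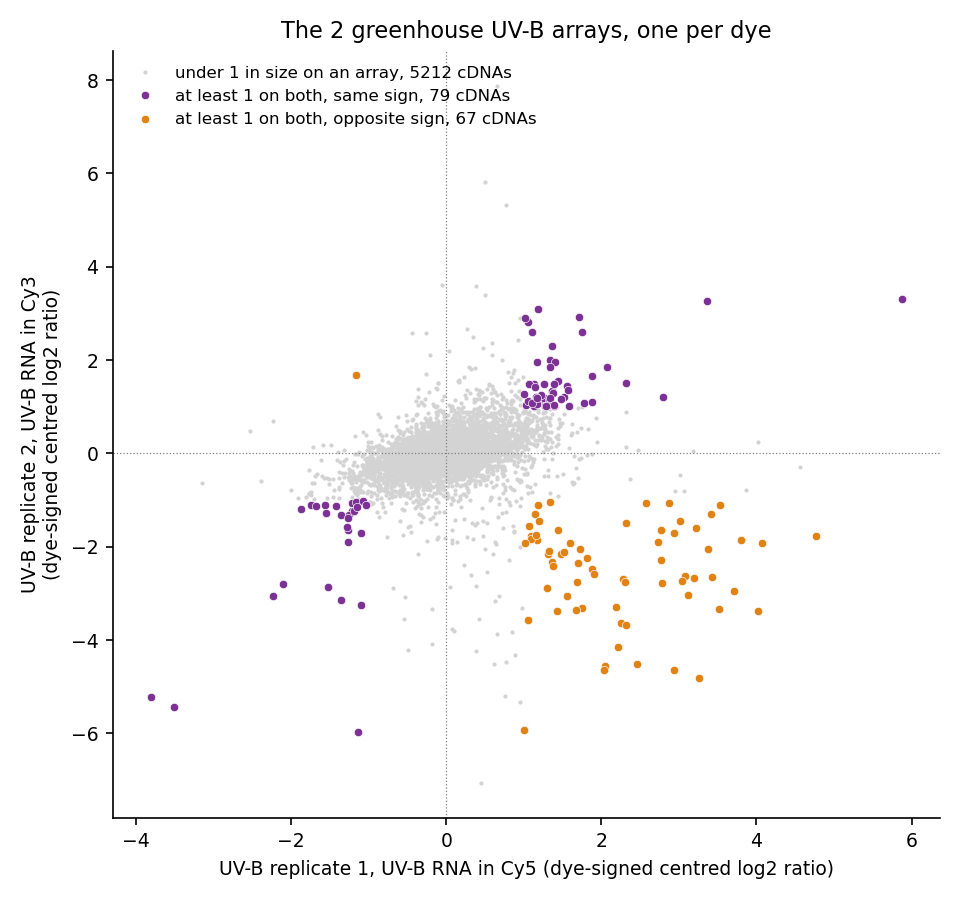
Signed, centred log2 ratio (greenhouse UV-B minus CA) of each cDNA on UV-B replicate 1 (x axis, UV-B RNA in Cy5) and UV-B replicate 2 (y axis, UV-B RNA in Cy3). Purple points are the 79 cDNAs of at least 1 in size with the same sign on both, orange points the 67 with opposite signs, of which 66 lie at the lower right.

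No cDNA passed an adjusted p of 0.05 in any of the 3 comparisons, tested with limma over all arrays and adjusted by Benjamini and Hochberg. For UV-B minus CA, 0 of 5399 passed (0%) and the lowest adjusted p was 0.0515. Before adjustment, p was under 0.05 for 701 cDNAs (13%), 445 positive (8.24%) and 256 negative (4.74%). For no UV-B minus CA, 0 of 5393 passed (0%), the lowest adjusted p was 0.226, and 384 (7.12%) had an unadjusted p under 0.05, 247 positive (4.58%) and 137 negative (2.54%). For UV-B minus no UV-B, 0 of 5392 passed (0%), the lowest adjusted p was 0.712, and 325 (6.03%) had an unadjusted p under 0.05, 159 positive (2.95%) and 166 negative (3.08%). The last comparison rests on 2 arrays against 1, none of which set both groups side by side, and the lone array was assumed to vary like the other groups. The simulation below drew independent normal noise, with 1 SD per cDNA on every array, and changed 100 cDNAs of each size at once. The real arrays differed in median absolute deviation, 0.529 and 0.38 with UV-B, against 0.409 without UV-B. The recovery counts therefore need not hold for them. In simulated data a difference of 1 was recovered for 43 of 100 cDNAs in UV-B minus CA, 9 of 100 in no UV-B minus CA and 3 of 100 in UV-B minus no UV-B. A difference of 2 was recovered for 77, 45 and 28 of 100 in the same order. With UV-B replicate 2 turned, 1, 0 and 1 cDNAs passed in the same 3 comparisons. The values below are therefore descriptions, apart from the p-values printed with them.

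By size alone, 28 of 5355 cDNAs (0.523%) were at least 1 in size with the same sign on both UV-B arrays and on the array without UV-B. They are the cDNAs seen in the greenhouse with or without the lamps. Among them 17 were positive (0.317%) and 11 were negative (0.205%), and 8 were named. These 8 belonged to INO1 (6 cDNAs), PIP1-1 and csu503(met). A further 27 cDNAs (0.504%) were at least 1 with the same sign on both UV-B arrays and under 0.5 on the array without UV-B, 19 positive (0.355%) and 8 negative (0.149%). The 4 named ones belonged to sam2 (3 cDNAs) and mdh4. The reverse, at least 1 without UV-B and under 0.5 on both UV-B arrays, held for 60 cDNAs (1.12%), 39 positive (0.728%) and 21 negative (0.392%), 7 of them named. The count without UV-B needs 1 large value and the others need 2 or 3, so the counts are not comparable in size. Just inside the first group lay INO1 at spot 13453, with 1.01 on UV-B replicate 1. Just outside it lay spot 2503, with 0.989 and 1.63 on the UV-B arrays, against 0.995 without UV-B.

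With UV-B replicate 2 turned, the first 2 groups held 10 and 29 cDNAs, and 0 of the original members were among them. The 60 cDNAs of the third group stayed, since a size under 0.5 does not depend on sign. No member of any of the groups passed the test of UV-B minus no UV-B (0 at adjusted p 0.05 by limma). In that test an unadjusted p under 0.05 was seen for 0 of the 28, 9 of the 27 and 23 of the 60, against 6.03% of all cDNAs. The groups were cut on the same values, so those counts are not evidence of a difference.

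**Figure D2:**
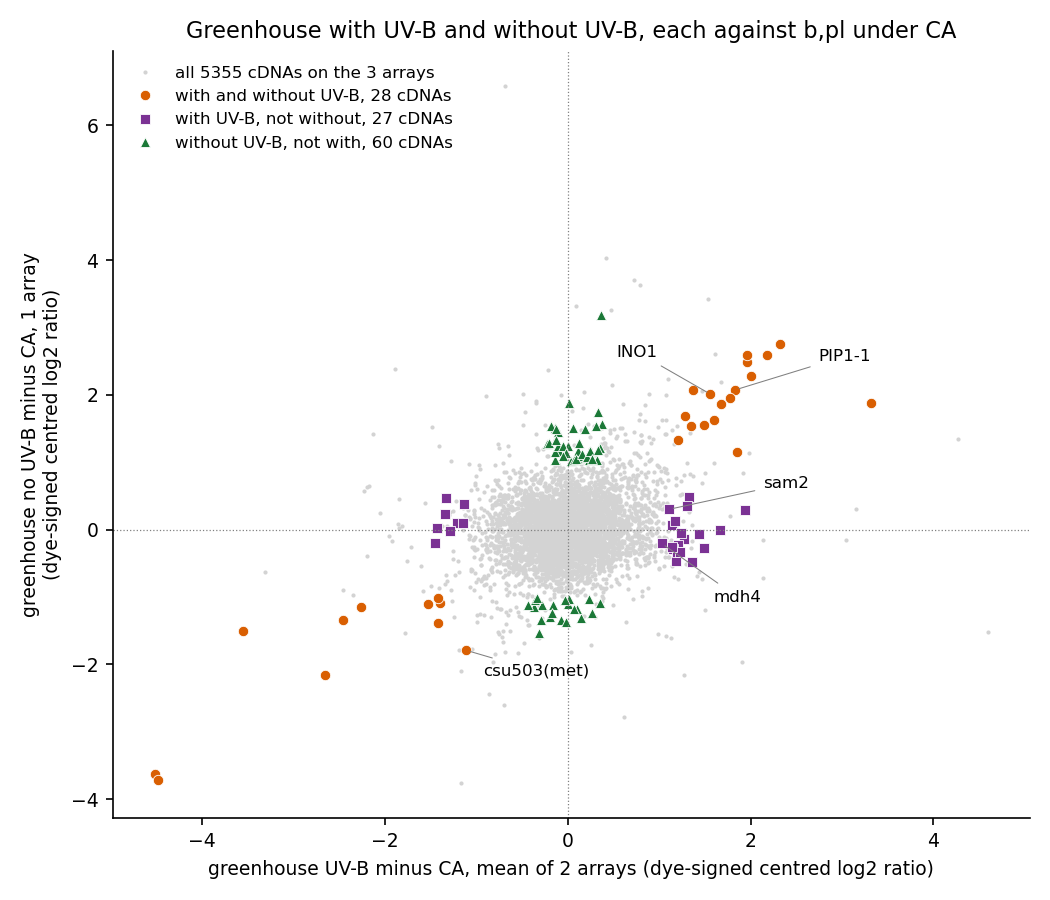
Mean signed, centred log2 ratio of the 2 UV-B arrays (x axis) against the value on the array without UV-B (y axis), both greenhouse minus CA, for 5355 cDNAs. Orange circles are the 28 cDNAs seen with and without UV-B, purple squares the 27 seen with UV-B and not without, green triangles the 60 seen without UV-B and not with. INO1, PIP1-1 and csu503(met) lie along the diagonal, sam2 and mdh4 along the x axis.

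INO1, which encodes inositol-3-phosphate synthase, the first enzyme of inositol synthesis, had 6 of the 8 named cDNAs seen with and without UV-B. With UV-B replicate 2 turned, INO1 had 0 cDNAs in that group. At spot 15358 it had 1.72 and 2.92 on the UV-B arrays, against 2.75 without UV-B. At spot 10816 it had 1.75 and 2.61 on the UV-B arrays, against 2.60 without UV-B. The arrays overlapped at both spots. Spot 15358 had an estimate of 2.32 ± 0.78 (SE; adjusted p 0.254) for UV-B minus CA, 3.17 ± 1.14 (adjusted p 0.51) for no UV-B minus CA and −0.86 ± 1.38 (adjusted p 0.998) for UV-B minus no UV-B, in limma's fit. Of the 19 INO1 cDNAs, 17 and 19 were positive on the UV-B arrays and 19 without UV-B. Their medians were 0.71 and 1.53 with UV-B, against 1.63 without UV-B, where the values ran from 0.77 to 2.75. For UV-B minus CA, 14 of 19 had a positive estimate with an unadjusted p under 0.05, and for no UV-B minus CA 17 of 19 did, against 8.24% and 4.58% of all cDNAs. The smallest p without UV-B was at spot 2206, with 0.51 and 1.18 on the UV-B arrays, against 1.61 without UV-B, and an estimate of 1.97 ± 0.35 (adjusted p 0.226) for no UV-B minus CA.

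All 19 INO1 estimates of UV-B minus no UV-B were negative, with a median of −0.86 and an unadjusted p under 0.05 for 1 of 19, against 3.08% of all cDNAs with a negative estimate. Within the Cy5 dye, UV-B replicate 1 lay at a median of 0.71, against 1.63 without UV-B, whereas UV-B replicate 2 lay at 1.53. The size of any INO1 difference between the greenhouse groups thus depended on the array. It also depended on the dye term, which enters the estimate from the lone Cy5 array without UV-B. Over the 2 UV-B arrays, one per dye, that term cancels. At spot 15358 the value of 2.75 without UV-B became an estimate of 3.17. With UV-B replicate 2 turned, the median estimate was −0.43 for UV-B minus CA, 1.82 for no UV-B minus CA and −2.33 for UV-B minus no UV-B. Under all alternatives tried, the median of UV-B minus no UV-B ran from −2.33 to −0.45. None of them left out or turned the lone array without UV-B. In the other genotypes at greenhouse UV-B the INO1 medians were 1.12 in B,Pl, 1.14 in bz2 and 1.49 in mutator.

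PIP1-1, a plasma membrane aquaporin of the water channel family, had 1 cDNA. It had 1.36 and 2.30 on the UV-B arrays, against 2.07 without UV-B, so all 3 values were positive and the groups overlapped. The estimate was 1.83 ± 0.36 for UV-B minus CA (adjusted p 0.139), 2.29 ± 0.52 for no UV-B minus CA (adjusted p 0.261) and −0.46 ± 0.63 for UV-B minus no UV-B (adjusted p 0.991). With the labels as given it was the named gene with the smallest p in UV-B minus CA, but with UV-B replicate 2 turned that estimate was −0.47. The values in B,Pl, bz2 and mutator at greenhouse UV-B were 1.58, 1.04 and 1.25. The other aquaporins were less even. PIP1-3 (7 cDNAs) had medians of 0.01 and 1.27 on the UV-B arrays, against 0.61 without UV-B. PIP2-1 (6 cDNAs) had medians of 0.40 and 0.47 on the UV-B arrays, against 0.11 without UV-B, and its spot 2341 had 1.14 and 0.80 with UV-B, against −0.05 without UV-B. Over the 17 aquaporin cDNAs the medians were 0.13 and 0.56 with UV-B, against 0.16 without UV-B. Their median estimate for UV-B minus CA was 0.48, and −0.17 with UV-B replicate 2 turned.

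The gene annotated csu503(met) had the opposite sign. Of its 21 cDNAs, 20 were negative on each of the UV-B arrays and 20 without UV-B, with medians of −0.87 and −0.43 on the UV-B arrays, against −1.51 without UV-B. The cDNA at spot 11242 had −1.17 and −1.05 on the UV-B arrays, against −1.79 without UV-B. Both UV-B arrays lay above the array without UV-B for 20 of 21 cDNAs, against 36.3% of all cDNAs. At spot 3385, with −0.98 and −0.43 on the UV-B arrays, against −2.61 without UV-B, the estimate was −2.54 ± 0.40 for no UV-B minus CA, the smallest p of any named cDNA there (adjusted p 0.226), and 1.84 ± 0.48 for UV-B minus no UV-B (adjusted p 0.712). An unadjusted p under 0.05 with a negative estimate was seen for 12 of 21 in UV-B minus CA and 15 of 21 in no UV-B minus CA, against 4.74% and 2.54% of all cDNAs. For UV-B minus no UV-B, 5 of 21 had a positive estimate with an unadjusted p under 0.05, against 2.95% of all cDNAs. The median estimate of that difference was 0.69, stayed between 0.54 and 1.11 under the 38 alternatives tried and was 1.11 with UV-B replicate 2 turned. Some of the 38 could not move any value, since leaving out the only array of another group gives the main fit again. None of the 38 left out or turned the lone array without UV-B, on which every such difference rests. On the other genotypes' UV-B arrays the medians were −0.55 in B,Pl, 0.45 in bz2 and −0.17 in mutator.

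The other 20 cDNAs seen with and without UV-B carried no symbol, and those given here were chosen after their values were seen. Spot 7 had −3.51 and −5.44 on the UV-B arrays, against −3.71 without UV-B. Spot 1951 had −3.81 and −5.22 on the UV-B arrays, against −3.63 without UV-B. These had the most negative means over the 3 arrays in the group. Spot 3946 had the lowest single value, with −1.14 and −5.96 on the UV-B arrays, against −1.50 without UV-B. The largest positive mean was at spot 5923, with 3.36 and 3.26 on the UV-B arrays, against 1.89 without UV-B. Spot 3970, with −2.23 and −3.07 on the UV-B arrays, against −2.16 without UV-B, had the smallest p of the group in UV-B minus CA (estimate −2.65, adjusted p 0.0847).

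Among genes seen with UV-B and not without, sam2 had the most cDNAs. It encodes an S-adenosylmethionine synthetase, which makes the methyl donor used in methylation of DNA, lignin precursors and choline, and the substrate for ethylene and polyamines. At spot 15649 it had 1.38 and 1.49 on the UV-B arrays, against −0.06 without UV-B. At spot 14656 it had 1.27 and 1.02 on the UV-B arrays, against 0.07 without UV-B. At spot 14512 it had 1.17 and 1.05 on the UV-B arrays, against 0.30 without UV-B. Both UV-B arrays lay above the array without UV-B at all 3 spots. The smallest p of a sam2 cDNA in UV-B minus CA was at spot 12640, with 0.93 and 1.33 on the UV-B arrays, against −0.16 without UV-B, an estimate of 1.13 ± 0.26 (adjusted p 0.152) and a difference between UV-B and no UV-B of 1.16 ± 0.46 (adjusted p 0.813).

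Over its 32 cDNAs, sam2 had medians of 0.63 and 0.92 on the UV-B arrays, against 0.19 without UV-B, and 30 and 31 were positive with UV-B, against 26 without UV-B. Both UV-B arrays lay above the array without UV-B for 27 of 32 cDNAs, against 36.3% of all cDNAs. Positive estimates with an unadjusted p under 0.05 numbered 21 of 32 in UV-B minus CA, against 8.24% of all cDNAs. They numbered 2 of 32 in no UV-B minus CA and 3 of 32 in UV-B minus no UV-B, against 4.58% and 2.95% of all cDNAs, so the count for no UV-B lay near the background. The values without UV-B were thus mostly above 0 but small, and 1 cDNA, at spot 11875, went the other way, with 0.47 and 0.18 on the UV-B arrays, against 1.03 without UV-B. The median estimate of UV-B minus no UV-B was 0.36, and −0.40 with UV-B replicate 2 turned, so its sign rests on the direction of that array. That of UV-B minus CA was 0.77, and −0.09 with the array turned. In B,Pl, bz2 and mutator at greenhouse UV-B the sam2 medians were 0.47, 0.44 and 0.21.

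Also in this group was mdh4, a cytosolic malate dehydrogenase, which interconverts malate and oxaloacetate. It had 1.03 on both UV-B arrays, against −0.20 without UV-B. The difference was 1.24 ± 0.40 (adjusted p 0.712), and 0.34 for mdh4 with UV-B replicate 2 turned, where its UV-B minus CA estimate was near 0. In B,Pl, bz2 and mutator at greenhouse UV-B, mdh4 had 0.09, 1.12 and 0.59. PP1 and LOC542358, among the 10 named genes with the smallest p in UV-B minus CA, had opposite signs in the b,pl greenhouse groups. PP1, a type 1 protein phosphatase that removes phosphate from serine and threonine, had 0.88 and 0.88 at spot 14941 on the UV-B arrays, against −0.86 without UV-B. LOC542358 had 1.05 and 0.84 on the UV-B arrays, against −0.38 without UV-B. The other genotypes at greenhouse UV-B did not share the positive values. In B,Pl, bz2 and mutator, PP1 at spot 14941 had −0.04, 0.09 and −0.12. LOC542358 had −0.11, −0.13 and −0.33 there, the sign of the b,pl array without UV-B. The estimates of UV-B minus no UV-B were 1.74 ± 0.35 for PP1 and 1.46 ± 0.33 for LOC542358 (adjusted p 0.712 for each), and 0.97 for PP1 and 0.72 for LOC542358 with UV-B replicate 2 turned. Over the 4 PP1 cDNAs, both UV-B arrays lay above the array without UV-B in 4, with medians of 0.47 and 0.44 with UV-B, against −0.33 without UV-B. The median difference of PP1 was 0.66, and 0.36 with UV-B replicate 2 turned.

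Of the unnamed cDNAs in this group, spot 2920 had the lowest adjusted p of all cDNAs in UV-B minus CA, 0.0515, with 1.13 and 1.48 on the UV-B arrays, against 0.36 without UV-B. Its difference between UV-B and no UV-B was 0.87 ± 0.29 (adjusted p 0.712). Spot 15436 had 1.38 and 1.03 on the UV-B arrays, against −0.23 without UV-B, a difference of 1.62. The 8 negative members reached −1.64 on a UV-B array, at spot 2020. These were chosen after their values were seen. A further 20 cDNAs (0.373%), 12 positive (0.224%) and 8 negative (0.149%), were at least 1 with the same sign on both UV-B arrays and lay between 0.5 and 1 in size, with that sign or not, without UV-B. Outside all these groups, 3 cDNAs (0.056%), 2 positive with UV-B (0.0373%) and 1 negative (0.0187%), were at least 1 in size on both UV-B arrays and at least 1 with the other sign without UV-B. The largest of them, spot 12148, had 5.88 and 3.32 on the UV-B arrays, against −1.52 without UV-B.

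Alpha-tubulin tua4, a subunit of microtubules, was mostly positive on the b,pl UV-B arrays and negative without UV-B, each cDNA by little. Its 57 cDNAs had medians of 0.59 and 0.18 on the UV-B arrays, against −0.31 without UV-B. Of these, 50 and 47 were positive with UV-B, against 5 without UV-B. Both UV-B arrays lay above the array without UV-B for 50 of 57, against 36.3% of all cDNAs. Positive differences with an unadjusted p under 0.05 numbered 7 of 57, against 2.95% of all cDNAs. At spot 3928 it had 1.45 and 0.75 on the UV-B arrays, against −0.41 without UV-B, a difference of 1.49 ± 0.64 (adjusted p 0.824). The median difference over the 57 was 0.75, stayed positive under the 38 alternatives (0.43 to 0.93) and was 0.62 with UV-B replicate 2 turned. That range does not cover a change of the lone array without UV-B, which no alternative left out or turned. At greenhouse UV-B, bz2 and mutator had the sign of the b,pl array without UV-B. Their tua4 medians were −0.19 in bz2 and −0.41 in mutator, with 54 and 52 of 57 negative. B,Pl lay near 0, with a median of −0.04 and 32 of 57 negative.

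The other tubulins differed less. TUA1 (30 cDNAs) had medians of 0.13 and −0.06 on the UV-B arrays, against −0.14 without UV-B. For tua3 (16 cDNAs) they were −0.01 and −0.09 with UV-B, against −0.28 without UV-B. For tua5 (8 cDNAs) they were −0.21 and −0.04 with UV-B, against −0.09 without UV-B. A single tua5 cDNA, at spot 1930, was among the 10 named genes with the smallest p in UV-B minus no UV-B, with 0.24 and −0.38 with UV-B, against −0.98 without UV-B. Over all 117 tubulin cDNAs, both UV-B arrays lay above the array without UV-B for 82, against 36.3% of all cDNAs, and the median difference was 0.53, or 0.40 with UV-B replicate 2 turned. Tubulin medians in B,Pl, bz2 and mutator at greenhouse UV-B were −0.04, −0.18 and −0.36.

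**Figure D3:**
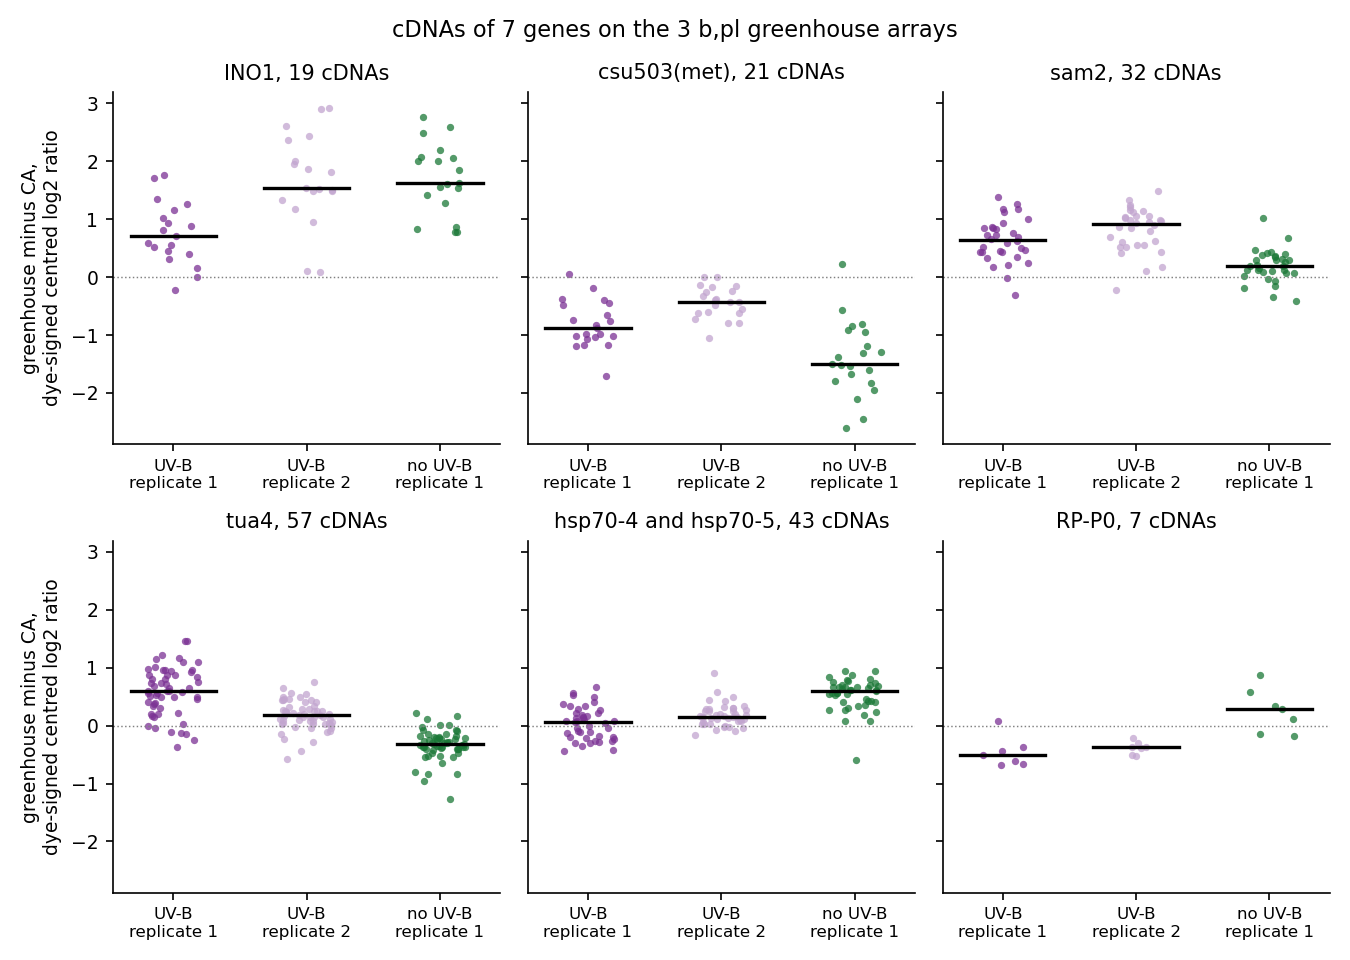
Signed, centred log2 ratio (greenhouse minus CA) of every cDNA of 7 genes on UV-B replicates 1 and 2 and on the array without UV-B; points are cDNAs, black lines medians. The medians of INO1 lie above 0 and those of csu503(met) below 0 on all 3 arrays, the medians of sam2 and tua4 are higher with UV-B, and those of the HSP70 genes and RP-P0 are higher without UV-B.

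The 7 named cDNAs seen without UV-B and not with it belonged to 7 genes. Of these gpc3, Lhcb5-2 and sam2 are given with their families here. LOC542185 had −0.02 and −0.18 on the UV-B arrays, against 1.45 without UV-B, a difference of −1.63 ± 0.64. GRF10 had 0.43 and 0.07 with UV-B, against 1.04 without UV-B. Negative without UV-B were ANT1 at spot 13045, with −0.14 and 0.15 with UV-B, against −1.10 without UV-B, and csu503(met) at spot 14068, with −0.49 and −0.14 with UV-B, against −1.53 without UV-B.

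The cytosolic HSP70 chaperones hsp70-4 and hsp70-5, which fold and refold proteins, were positive without UV-B and close to 0 on the b,pl UV-B arrays. Their 43 cDNAs had medians of 0.07 and 0.15 on the UV-B arrays, against 0.59 without UV-B. Of the 43, 23 and 36 were positive with UV-B, against 42 without UV-B. Both UV-B arrays lay below the array without UV-B for 32 of 43, against 35.7% of all cDNAs. An unadjusted p under 0.05 with a positive estimate was seen for 20 of 43 in no UV-B minus CA, against 4.58% of all cDNAs, and for 0 in UV-B minus CA. For UV-B minus no UV-B it was seen with a negative estimate for 12 of 43, against 3.08%. At spot 6496, hsp70-4 had −0.23 and 0.08 on the UV-B arrays, against 0.88 without UV-B, a difference of −1.14 ± 0.30 (adjusted p 0.712). At spot 13795, hsp70-5 had −0.35 and 0.07 on the UV-B arrays, against 0.94 without UV-B, a difference of −1.11 ± 0.38 (adjusted p 0.72). The median difference over the list was −0.55, stayed between −0.69 and −0.46 under the 38 alternatives and was −0.69 with UV-B replicate 2 turned. Again the array without UV-B was kept as it stood in all 38. At greenhouse UV-B the list had medians of 0.11 in B,Pl and 0.03 in bz2, but 0.50 in mutator, where 42 of 43 were positive as on the b,pl array without UV-B. The 14 cDNAs of small heat shock proteins and other chaperones did not share the pattern, with medians of −0.36 and −0.03 with UV-B, against −0.22 without UV-B.

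Genes of light capture and carbon fixation lay the same way as HSP70 on the b,pl arrays, although only 7 cDNAs were named. The 2 cDNAs of Lhcb5-2, a protein of the photosystem II antenna, had 0.48 and 0.27 at spot 9901 on the UV-B arrays, against 1.57 without UV-B, and 0.95 and −0.03 at spot 11062 with UV-B, against 1.43 without UV-B. The 5 cDNAs of pep7, a phosphoenolpyruvate carboxylase, had medians of −0.02 and 0.03 with UV-B, against 0.54 without UV-B. Both UV-B arrays lay below the array without UV-B for all 7, against 35.7% of all cDNAs. The median difference was −0.70, and −0.83 with UV-B replicate 2 turned, with 0 of 7 at an unadjusted p under 0.05, against 6.03% of all cDNAs. In B,Pl, bz2 and mutator at greenhouse UV-B the medians of the 7 were 0.73, 0.05 and 0.38. At spots 9901 and 11062, Lhcb5-2 had 1.57 and 1.44 in B,Pl with UV-B, near the b,pl values without UV-B. It had −1.82 and 0.11 in bz2, and 1.12 and 0.99 in mutator.

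Ribosomal proteins were mostly negative on the b,pl UV-B arrays and near 0 without UV-B. Their 15 cDNAs had medians of −0.60 and −0.48 on the UV-B arrays, against 0.12 without UV-B. Both UV-B arrays lay below the array without UV-B for 14 of 15, against 35.7% of all cDNAs. RP-P0, the stalk protein of the large subunit, showed this in 7 of 7 cDNAs, with medians of −0.51 and −0.37 with UV-B, against 0.29 without UV-B. At spot 6649 it had −0.43 and −0.38 with UV-B, against 0.58 without UV-B, a difference of −0.97 ± 0.26 (adjusted p 0.712). The 3 cDNAs of rpl17, also of the large subunit, had medians of −0.40 and −0.48 with UV-B, against 0.06 without UV-B. The median difference of the list was −0.48, and −0.19 with UV-B replicate 2 turned. At greenhouse UV-B its medians were −0.28 in B,Pl, 0.05 in bz2 and 0.13 in mutator, with 3, 10 and 10 of 15 positive, so bz2 and mutator lay near the b,pl array without UV-B. Other translation genes had these values. The 58 cDNAs of elongation factor 1-alpha, which brings aminoacyl-tRNA to the ribosome, had medians of −0.16 and −0.00 with UV-B, against −0.23 without UV-B, and the 12 of initiation factors had −0.29 and −0.06 with UV-B, against −0.28 without UV-B.

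Enzymes of glycolysis split by gene. Enolase eno1, which makes phosphoenolpyruvate, had medians over 5 cDNAs of 0.08 and 0.63 on the UV-B arrays, against 0.86 without UV-B, and eno2 over 4 cDNAs had −0.24 and 0.05 with UV-B, against −0.75 without UV-B. At spot 4975, eno1 had 0.30 and 0.71 with UV-B, against 1.03 without UV-B, with an estimate of 1.18 ± 0.25 for no UV-B minus CA (adjusted p 0.229). The cytosolic glyceraldehyde-3-phosphate dehydrogenases gpc2 and gpc3 had single cDNAs among the smallest p of UV-B minus no UV-B. At spot 6637, gpc2 had −0.70 and −0.60 with UV-B, against 0.51 without UV-B. At spot 6715, gpc3 had −0.05 and 0.11 with UV-B, against 1.01 without UV-B. Other cDNAs of gpc2 differed, its medians over 7 being −0.53 and 0.04 with UV-B, against −0.20 without UV-B. Over the 34 cDNAs of the list, both UV-B arrays lay below the array without UV-B for 18, against 35.7% of all cDNAs, and the medians were −0.42 and 0.05 with UV-B, against −0.04 without UV-B. The median difference of the list was −0.40, and −0.24 with UV-B replicate 2 turned. For eno1 the median estimate of UV-B minus CA was 0.39, and −0.29 turned, while its difference was −0.68, and −1.08 turned. For gpc2 the median difference was −0.37, and −0.29 turned.

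Mitochondrial carriers were mostly negative on the b,pl array without UV-B, and also at some spots in B,Pl with UV-B. ANT1, which exchanges ADP and ATP across the inner membrane, had medians over 12 cDNAs of 0.14 and −0.20 with UV-B, against −0.36 without UV-B, and ANT2 over 4 cDNAs had 0.06 and −0.10 with UV-B, against −0.54 without UV-B. At spot 8011, ANT1 had 0.61 and −0.01 with UV-B, against −0.68 without UV-B, a difference of 1.18 ± 0.27 (adjusted p 0.712). In B,Pl, bz2 and mutator at greenhouse UV-B that cDNA had −0.88, 0.65 and −0.20. The ANT2 cDNA at spot 7501 had −1.07, 0.65 and −0.22 there, against −0.90 on the b,pl array without UV-B. Over the 23 cDNAs of mitochondrial membrane proteins, both UV-B arrays lay above the array without UV-B for 15, against 36.3% of all cDNAs. Their median difference was 0.33, and 0.48 with UV-B replicate 2 turned. Medians of the 23 in B,Pl, bz2 and mutator at greenhouse UV-B were −0.24, 0.22 and 0.06. The stomatin1 cDNA at spot 5980, of the same list, had 0.67 and 0.61 with UV-B, against 0.40 without UV-B. The other, at spot 457, had 0.43 and −0.17 with UV-B, against −0.21 without UV-B. The glutathione transferase gst11, a detoxification enzyme, had 0.14 and 0.06 at spot 3082 with UV-B, against −0.89 without UV-B, a difference of 0.97 ± 0.29 (adjusted p 0.712). The whole antioxidant and detoxification list, gst11 included, was mixed, with medians over 15 cDNAs of −0.14 and −0.24 with UV-B, against −0.05 without UV-B.

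**Figure D4:**
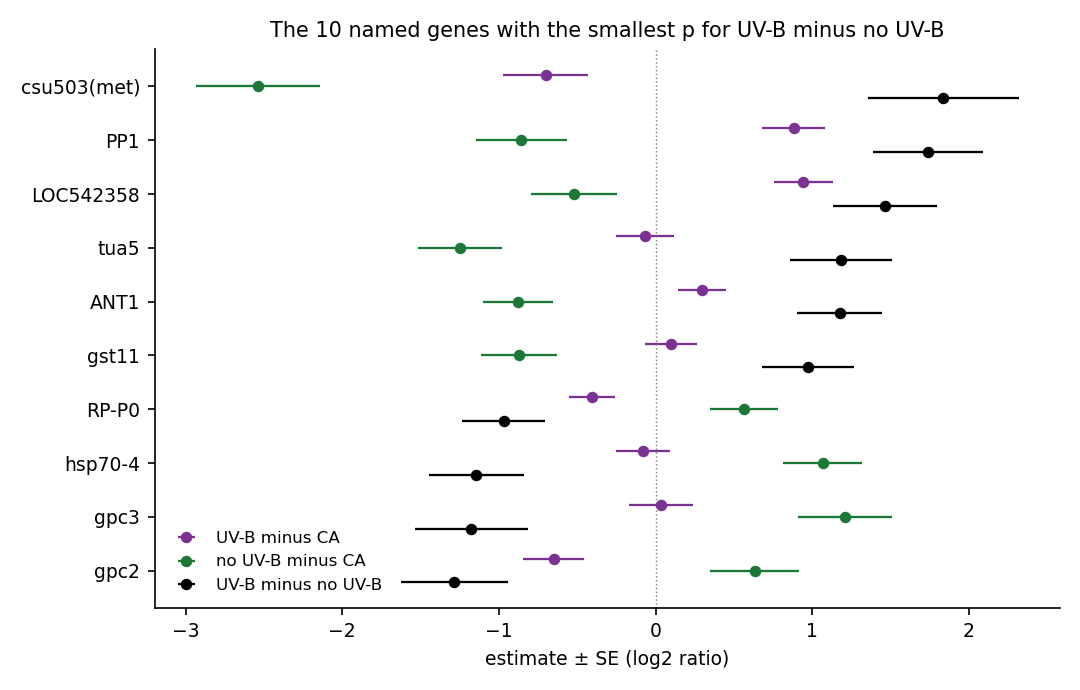
Estimates with their SE (log2 ratio) for the 10 named genes with the smallest p in UV-B minus no UV-B, 1 cDNA a gene. Purple is UV-B minus CA, green no UV-B minus CA and black the difference of both. All 10 have an adjusted p of 0.712, and in most the estimate without UV-B lies farther from 0 than that with UV-B.

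Linker histones, which compact chromatin, differed by gene and array. Over 63 cDNAs the medians were −0.13 and −0.37 with UV-B, against −0.23 without UV-B. An unadjusted p under 0.05 with a negative estimate was seen for 11 of 63 in UV-B minus CA, against 4.74% of all cDNAs, and 10 of the 11 were cDNAs of hon102. For hon101 (17 cDNAs) the medians were 0.30 and −0.14 with UV-B, against −0.39 without UV-B, and 12 of its 17 UV-B minus CA estimates were positive. The hon102 cDNA at spot 7315 had −0.84 and −0.96 with UV-B, against −0.21 without UV-B, and H1 at spot 8833 had −0.58 and −0.81 with UV-B, against −0.24 without UV-B. MNB1b, a high mobility group chromatin protein, had −1.57 and −1.10 with UV-B, against −0.67 without UV-B. The 50 cDNAs of chromatin modification and silencing had medians of 0.01 and 0.00 with UV-B, against 0.14 without UV-B, and the 4 of core histones had 0.09 and −0.08 with UV-B, against −0.11 without UV-B. For linker histones the median estimate of UV-B minus CA was −0.30, and 0.14 with UV-B replicate 2 turned.

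The remaining lists gave small or uneven values. Calcium and phosphatase signalling (23 cDNAs) had medians of −0.41 and 0.04 with UV-B, against −0.28 without UV-B. Within it, calmodulin CaM1 (9 cDNAs) had −1.08 and −0.05 with UV-B, against −0.37 without UV-B, so that the 2 UV-B arrays disagreed, and PP2C at spot 958 had 0.68 and 0.90 with UV-B, against 1.29 without UV-B. Sucrose and starch (19 cDNAs) had −0.14 and −0.17 with UV-B, against −0.03 without UV-B, and sucrose synthase sh1 at spot 3877 had −1.26 and −1.90 with UV-B, against −0.90 without UV-B. Homeobox and growth-regulating factors (37 cDNAs) had 0.25 and 0.05 with UV-B, against −0.01 without UV-B, and GRF12 had 0.70 and 0.74 with UV-B, against −0.02 without UV-B. DNA replication and repair (6 cDNAs) had −0.14 and −0.11 with UV-B, against 0.07 without UV-B. The cell wall list held the 2 cDNAs of RGP, a reversibly glycosylated polypeptide. At spot 1645 RGP had −0.48 and −0.28 with UV-B, against 0.38 without UV-B. At spot 15802 RGP had −0.98 and −0.05 with UV-B, against 0.58 without UV-B. Proteolysis (4 cDNAs) had −0.42 and 0.05 with UV-B, against −0.36 without UV-B, profilins (3 cDNAs) had −0.59 and −0.03 with UV-B, against −0.45 without UV-B, and jasmonate and lipoxygenase genes (5 cDNAs) had 0.48 and 0.03 with UV-B, against −0.08 without UV-B. The list of S-adenosylmethionine, methionine, inositol and choline synthesis had medians over 58 cDNAs of 0.61 and 0.97 with UV-B, against 0.36 without UV-B. Its 58 cDNAs included 32 of sam2 and 19 of INO1, and HMT-2, a homocysteine S-methyltransferase, went against them with −0.40 and −1.18 with UV-B, against −1.08 without UV-B. Phosphoethanolamine methyltransferase PEAMT (5 cDNAs), of choline synthesis, had 0.45 and 0.05 with UV-B, against 0.06 without UV-B.

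**Figure D5:**
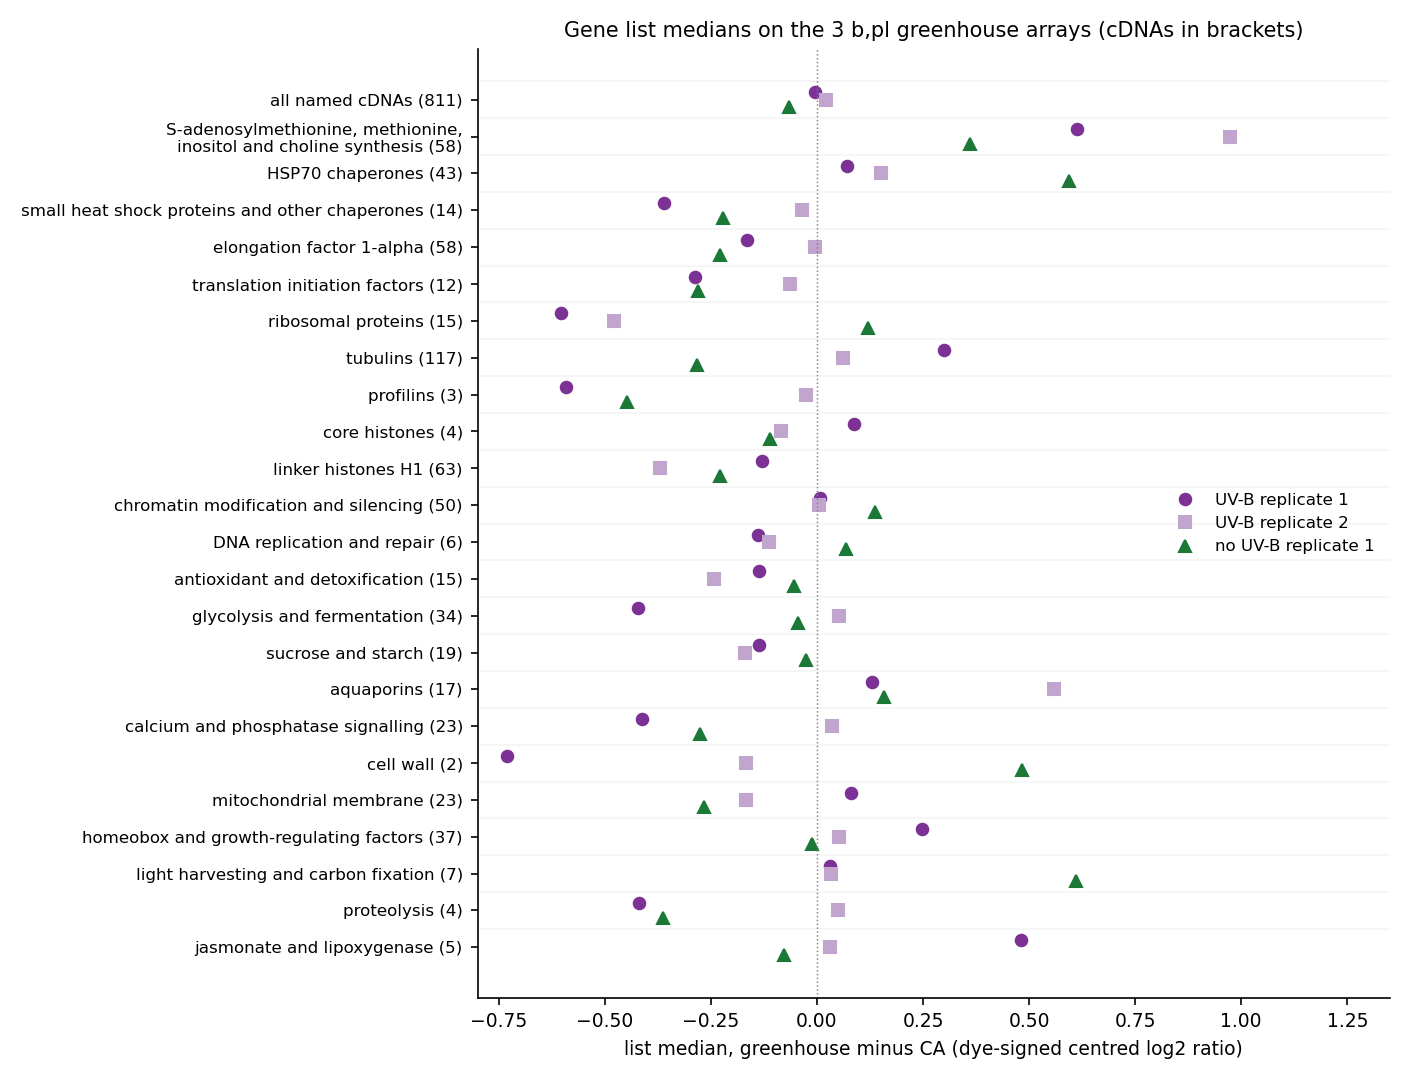
Median signed, centred log2 ratio (greenhouse minus CA) of each gene list on UV-B replicate 1 (purple circles), UV-B replicate 2 (light squares) and the array without UV-B (green triangles); the number of cDNAs is in brackets. HSP70 and light harvesting lie highest without UV-B, at 0.59 and 0.61, while the ribosomal proteins lie at −0.60 and −0.48 with UV-B, against 0.12 without UV-B.

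The labelled tissue could not be checked by level, since ratios hold none, and no bundle sheath marker looked for was annotated. The mesophyll marker was Lhcb5-2, given above. Markers of meristem or immature tissue (kn1, pcna2, MCM6 and his2b5, 19 cDNAs) had medians of 0.19 and 0.03 with UV-B, against −0.05 without UV-B. Epidermal ocl3, ocl4 and ocl5 (5 cDNAs) had −0.22 and 0.09 with UV-B, against −0.12 without UV-B. Kernel marker sh1 (5 cDNAs) had −0.60 and −0.56 with UV-B, against −0.12 without UV-B. The part of leaf composition in any of these values was not tested, and fewer cells of a type and less RNA per cell cannot be told apart.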

How the data were processed

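The deposited values are log2 ratios per spot. For scanner settings, background correction, the authors' normalisation and the numerator channel, the step is not given in the sources used here. Groups and dyes come from the array labels, and replicate numbers follow deposit order. Conflicting dye labels are carried by 4 arrays, all of other groups.

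The triplicate layout was read from the values: the median SD within triplicates was 0.0393, against 0.238 when shifted by 1 spot. The 3 spots were averaged, arrays were centred on their medians and the greenhouse RNA counted as plus in Cy5 and minus in Cy3. One least-squares model per cDNA covered all 27 arrays, with 18 group terms relative to b,pl CA and a dye term, and 8 residual degrees of freedom; limma 3.58.1 in R 4.3.3 shrank the variances. P-values were two-sided and adjusted over all cDNAs. The CA RNA is the control on each array, so its own spread is left out, and UV-B minus CA and no UV-B minus CA share it. The fit was tested on simulated data. Genes were first picked by a fixed rule: where few cDNAs passed, the 10 genes with the smallest p in each comparison, all named cDNAs of the size groups and up to 4 per list. Not all of the picks are given in the text, LOC542737 for one. Some genes given, such as rpl17, HMT-2 and eno2, came from outside the rule. Members and lists were chosen with earlier results of these data known. Gene names come from a platform annotation, of which 208 of 213 genes matched assembly Zm-B73-REFERENCE-NAM-5.0; no sequence or coordinate was used. Python 3.11.15 made the summaries. The number of arrays limits the precision. Alternatives were 38, of which 27 were added after seeing the data. Leaving out the only array of another group gave the main fit again, and leaving out either array of some pairs gave the same fit. A range over the 38 thus rests on fewer distinct fits. No fit left out or turned the array without UV-B, so no range covers a change of it.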

Additional observations from a re-analysis of the deposited data

How the results depend on the processing

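The counts of cDNAs past adjusted p 0.05 (0, 0 and 0 for UV-B minus CA, no UV-B minus CA and UV-B minus no UV-B) moved under these alternatives only. For UV-B minus CA the count was 1 with UV-B replicate 2 turned, 1 without the dye term, 1 with cDNAs measured on every array (spot 2920, adjusted p 0.0358), 2 with b,pl PE removed replicate 1 turned and 10 with B,Pl PE replicate 3 turned, among them PIP1-1 (adjusted p 0.0492); leaving out 1 array gave 0 to 2. For UV-B minus no UV-B it was 1 with UV-B replicate 2 turned (spot 6052), and leaving out 1 array gave 0 to 1. Spots 3052 and 8053 passed only without UV-B replicate 1 and spot 6052 without UV-B replicate 2. The cause was not tested. For no UV-B minus CA every alternative gave 0.

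The group seen with and without UV-B held 28 cDNAs, 21 without centring, 11 with arrays scaled alike, 124 with lower size limits and 8 at 1.5. The group seen with UV-B and not without held 27, against 20, 3, 152 and 0. The reverse group held 60, against 29, 47, 198 and 9. Reading the values as group over the other channel gave 10, 29 and 60, as did turning UV-B replicate 2. Leaving out a UV-B replicate gave 74 to 77, 176 to 304 and 102 to 109. With arrays left uncentred, the median estimate over all cDNAs was 0.0818 for UV-B minus CA, 0.0263 for no UV-B minus CA and 0.053 for UV-B minus no UV-B, against −0.00611, −0.0131 and 0.00364. Of 54 named values, 12 changed sign, only where UV-B replicate 2 was turned or the channels were read the other way, and 1 passed anywhere. No array is left for no UV-B if its replicate is dropped, so that was not run. No paired analysis was possible because replicate numbers are not in the labels.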

Other observations

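Among the 20 unnamed cDNAs seen with and without UV-B, 8 formed 4 pairs whose spots lay exactly 1944 spots apart on the array. Spots 7 and 1951, with values down to −5.44, are one such pair. Spots 2026 and 3970 are another, with −2.11 and −2.23 on UV-B replicate 1, −2.81 and −3.07 on UV-B replicate 2, against −1.34 and −2.16 without UV-B. Spots 12163 and 14107, and the adjacent spots 12166 and 14110, are the other pairs, all positive. The groups seen with UV-B and not without, and the reverse, held 0 such pairs. Among the 20 cDNAs at least 1 in size with UV-B and between 0.5 and 1 without it there was 1 pair, spots 12874 and 14818, with opposite signs (−1.03 and 1.08 on UV-B replicate 2). Over all cDNAs, values 1944 spots apart correlated at 0.0846 and 0.127 on the UV-B arrays, against 0.0796 on the array without UV-B. Neighbouring cDNAs correlated at 0.249 and 0.249 on the UV-B arrays, against 0.121 without UV-B. These correlations are across cDNAs, which are not independent replicates, and place on the array was not tested as a source of any value above. The spacing of 1944 spots was not set in advance, and pairs at other spacings were not counted. Whether 4 pairs are unusual was not tested.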
